A study of Xenopus tropicalis with 18 samples.

Results

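RNA from foregut explants of Xenopus tropicalis, a diploid clawed frog, was set against RNA from hindgut explants. Both regions were dissected from embryos at stage NF33, a tailbud stage at which the gut is still a short yolky tube. The comparison takes every control library of the 2 gut regions, 6 of the 18 libraries of the series, as 3 foregut control and 3 hindgut control libraries. The other 12 are 3 head with pharynx control libraries and 3 libraries each of foregut treated with 40 µM cyclopamine, an inhibitor of Hedgehog signalling, with 100 nM BMS493, which acts against retinoic acid receptors, or with 1 ng of a morpholino against Rfx6 and 0.1% DMSO. Embryos were wild type, of the Nigerian strain (NXR_1018, Xtr.NigerianSt549), and 8 explants, titled "mesendo", were pooled for each library. Foregut control embryos had received 0.1% DMSO and 1 ng of a mismatch morpholino, an antisense oligonucleotide that serves as injection control. Hindgut control and head with pharynx control embryos are labelled with 0.1% DMSO only. Region and mismatch morpholino therefore cannot be told apart in any difference given here. The sources used here give neither clutch nor parents of a pool, so adjusted p-values measure the spread between libraries. The total count was 26006163 to 45586493 per foregut library and 29050035 to 96814679 per hindgut library.

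The vertebrate gut tube is divided along its length soon after gastrulation. Its anterior part, the foregut, gives rise to liver, pancreas, lungs and stomach, and its posterior part, the hindgut, to the intestine behind them. Signals such as Wnt, FGF, BMP and retinoic acid, many of them from the surrounding mesoderm, set these territories and the transcription factors that mark them. Genes are named in the files only by identifiers, and 0 of 28863 could be paired with a gene symbol or a sequence. For that reason the labelled tissues were not checked against marker genes, no gene's function is given, and genes are described by level, fold and state.

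On a scale between the 2 gut regions, foregut control replicate 2 stood between its group and the hindgut. The genes at least 2-fold different between the regions were called with 1 library left out, and that library was then placed on a scale that put the mean of the remaining hindgut libraries at 0 and that of the remaining foregut libraries at 1. Replicate 2 of foregut lay at 0.781, against 0.986 for foregut replicate 1 and 1.01 for foregut replicate 3. The hindgut libraries, each left out in the same way, lay at 0.0643, 0.00704 and 0.0642. On this scale replicate 2 of foregut was farther from its group than any of the other 5 libraries, and still much nearer to foregut than to hindgut. The scale shows a move between the gut regions only. Over the tested genes, foregut replicate 2 also correlated more with head with pharynx libraries (r of 0.852 to 0.857) than replicates 1 (0.835 to 0.840) and 3 (0.836 to 0.841). Hindgut replicate 2 did so too, at 0.835 to 0.843, against 0.824 to 0.832 and 0.825 to 0.833. The shift was thus not toward hindgut alone.

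The shift of foregut replicate 2 was seen in both directions of difference. Without it, 1203 genes were called at least 2-fold higher in foregut and 818 at least 2-fold lower. Over the 1203 genes its mean level was 1.56 log2 CPM (counts scaled to library size and composition), against 2.15 and 2.14 in foregut replicates 1 and 3 and −0.02, −0.25 and −0.03 in the hindgut libraries. Over the 818 genes its mean level was 2.47 log2 CPM, against 2.18 and 2.19 in the other foregut libraries and 3.89, 3.94 and 3.85 in the hindgut libraries. It lay below both other foregut libraries in 788 of the 1203 genes (65.5%). The same share was 31.8% for replicate 1 and 28.7% for replicate 3, each on the genes called without it. Foregut replicate 2 stayed above all 3 hindgut libraries in 1054 of the 1203 genes and below all 3 in 785 of the 818. On the genes called without it, replicate 1 did so in 989 of 1009 and 637 of 659. Replicate 3 did so in 997 of 1021 and 633 of 640. In the higher genes, overlap with hindgut was thus most frequent for replicate 2.

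Hindgut replicate 2 deviated in the same genes. Among 11207 genes over 3 log2 CPM, 102 were at least 2-fold lower in foregut replicate 2 than in the mean of foregut replicates 1 and 3, and their median deviation was −1.21 log2. In hindgut, where these 102 genes were not chosen, replicate 2 deviated by a median of −0.80 log2 and was lower in 97 of the 102 (95.1%), against 45.8% of all 11207 genes. Head with pharynx replicate 2 deviated by a median of −0.025 log2 in the same genes and was lower in 56.9% of them, against 52.4% of all genes. The 24 genes at least 2-fold higher in foregut replicate 2 had a median deviation of 0.11 log2 in hindgut replicate 2. Genes low in replicate 2 of foregut were thus low in replicate 2 of hindgut too, and their deviation in head with pharynx was near 0. The 11207 genes were chosen by level in the gut libraries only. Genes hardly detected in head with pharynx would show a deviation near 0 there, and the level of the 102 genes there was not examined. Whether head with pharynx replicate 2 shares the shift is therefore not decided. The sources used here do not say whether a number marks a shared clutch, day or dissection.

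**Figure D1:**
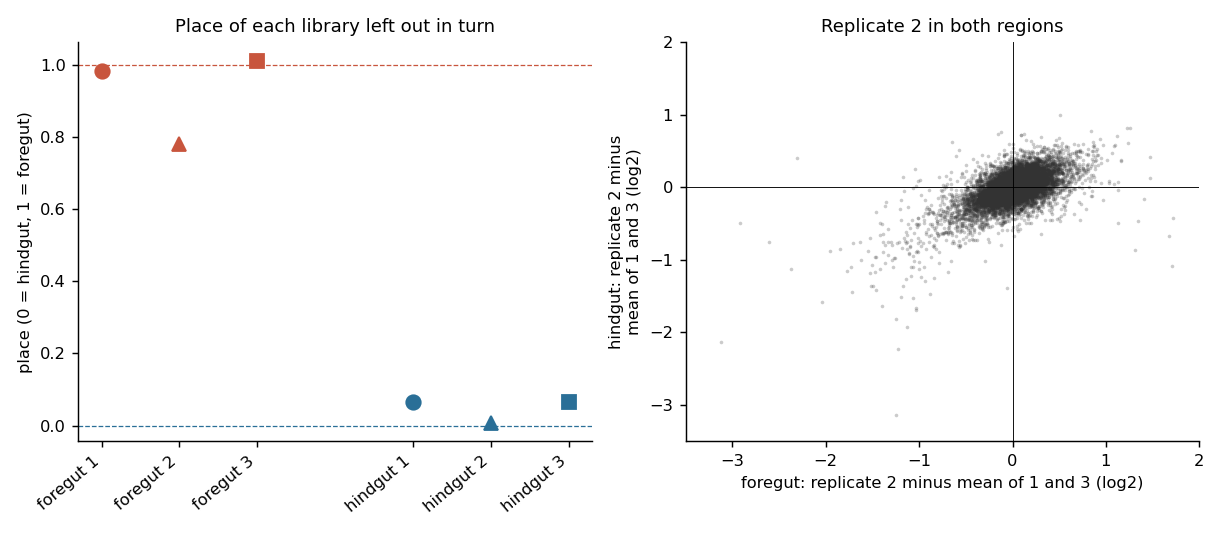
Left, the place of each control gut library (circles, triangles and squares are replicates 1, 2 and 3) on a scale from 0 at hindgut to 1 at foregut, over genes called without it; foregut replicate 2 lies at 0.781. Right, the log2 deviation of replicate 2 from the mean of replicates 1 and 3, in foregut (horizontal) and hindgut (vertical), with 1 point for each of 11207 genes; most genes lie near 0 and a tail of points is low in both regions.

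Deviations from the group mean correlated across the 11207 genes between foregut and hindgut libraries of the same number, with r of 0.44, 0.61 and 0.38 for numbers 1, 2 and 3. Between different numbers r ran from −0.47 to 0.22. These points share libraries and genes, and the values are a description. Deviations of 3 libraries from their mean sum to 0, so a shared deviation of replicate 2 by itself raises r among numbers 1 and 3. Foregut 1 with hindgut 3 had an r of 0.21, and foregut 3 with hindgut 1 of 0.22. Pairing by number is thus plainest for number 2, and less certain for 1 and 3. The replicate block is taken up with the limits of the results. Among the genes higher in foregut, the deviation of foregut replicate 2 also differed with the level in the head with pharynx. Of the 1203 genes, 397 had a lower mean CPM in head with pharynx than in hindgut, and replicate 2 deviated by a median of −0.83 log2 in foregut and −0.45 in hindgut. In the 495 genes with a higher mean CPM in head with pharynx than in foregut, the deviations were −0.10 log2 in foregut and 0.00 in hindgut. In the 818 genes lower in foregut, where foregut replicate 2 was mostly high, its median deviation did not follow that order, at 0.44 log2 with head with pharynx above hindgut, 0.28 with it between the gut regions and 0.35 with it below foregut.

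Of 18551 genes tested with edgeR's quasi-likelihood test, 3087 were higher in foregut than in hindgut (16.6%) and 3002 were lower (16.2%) at an adjusted p under 0.05. The filter on low counts took in head with pharynx, so some tested genes had no counts in either gut region. Shares over all tested genes, here and below, include such genes and are lowered by them. With the 6 gut libraries alone, 17595 genes passed the filter. Calls in the 2 directions were nearly equal in number. The median log2 difference of called genes was 0.72 in genes higher in foregut, with a median SE of 0.14, and 0.59 in size in genes lower in foregut, with a median SE of 0.11. Most calls were small differences, since 1993 of the higher and 2300 of the lower genes differed by less than 2-fold. In bulk tissue, fewer cells of a type and less RNA per cell cannot be told apart. The split of calls depended on scaling. With total counts in place of TMM scaling (trimmed mean of M-values), which shifted the median difference of all genes to 0.15 log2, 5320 genes were higher and 2098 lower, so that 71.7% of calls were higher in foregut, against 50.7% with TMM. At 2-fold and over, total counts gave 1393 higher and 561 lower genes (71.3% higher), against 60.9% higher with TMM.

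With TMM scaling, the balance changed with the size of the difference. At least 2-fold, 1094 genes were higher in foregut (5.9%) and 702 lower (3.78%), and at least 8-fold, 247 were higher (1.33%) and 64 lower (0.345%). The number of higher genes per lower gene was 1.03 over all calls, 1.56 at 2-fold, 2.98 at 4-fold and 3.86 at 8-fold. With total counts in place of TMM, the balance did not rise from all calls (71.7% higher in foregut) to 2-fold (71.3%). At 8-fold, total counts gave 267 higher and 60 lower genes. At 32-fold and over, 106 genes were higher in foregut and 24 lower. Some of these folds rest on a region without counts, as 23 called genes higher in foregut had no count in hindgut and 9 lower genes had none in foregut. With every gene's lower region set to no less than 3 counts over the group, the counts at 8-fold were 235 higher and 55 lower, and the median log2 differences were 4.37 and −3.90. Without foregut replicate 2, 283 genes were at least 8-fold higher and 86 lower.

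**Figure D2:**
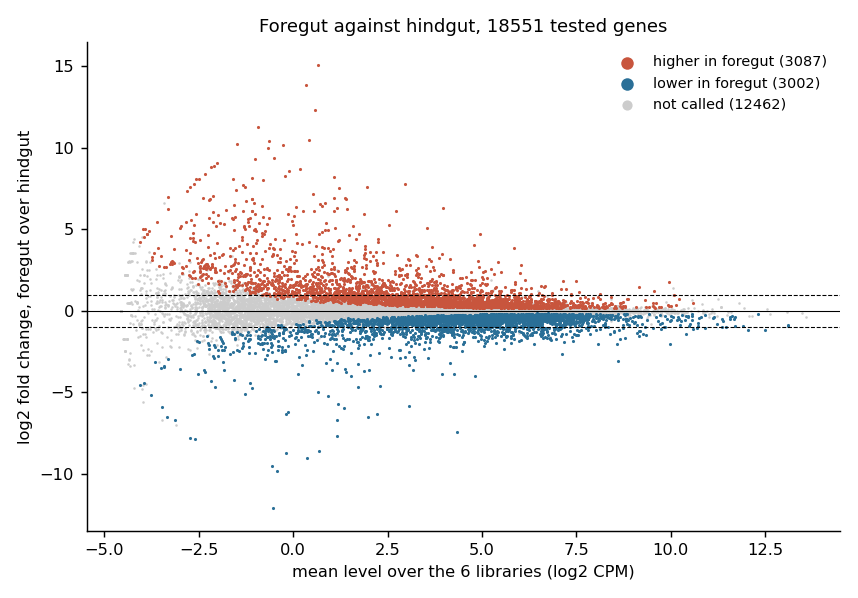
Each of 18551 tested genes by its mean level over the 6 libraries (horizontal, log2 CPM) and its log2 fold change of foregut over hindgut (vertical), with called genes coloured and dashed lines at 2-fold. The widest folds above 0 lie at low to middle mean levels, and the 3087 higher and 3002 lower calls are spread over the range. The place of the widest folds follows largely from the axis, since a gene near 0 in either region has a low mean log2 CPM.

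Within the lists the libraries rarely overlapped. All 3 foregut libraries lay above all 3 hindgut libraries in 1052 of the 1094 genes, where over all tested genes this held for 22.2%, and below them in 695 of the 702, where the share over all tested genes was 21.2%. These lists were chosen on the same libraries, so the counts describe them. Between libraries of the same number, foregut was higher in all 3 numbers for 1086 of the 1094 genes and lower in all 3 for 700 of the 702. Over all tested genes, foregut was higher in all 3 numbers for 6039 of 18551, and the count for lower was not made. These counts too follow largely from the choice of the lists. For the 247 genes at least 8-fold higher in foregut, the mean difference was 4.24, 3.82 and 4.31 log2 in numbers 1, 2 and 3, smallest in number 2.

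Genes higher in foregut were mostly of low level, and genes lower in foregut reached higher levels. To compare levels between genes, the authors' TPM values were used, which are scaled for transcript length. In foregut, the 1094 genes at least 2-fold higher had a median level of 2.34 TPM (quartiles 0.78 and 7.86), against 0.462 TPM in hindgut. The 702 genes at least 2-fold lower had a median of 2.60 TPM in foregut and 7.58 TPM in hindgut (quartiles 1.67 and 30.01 in hindgut). Levels over 100 TPM in the higher region were reached by 24 of the 1094 and by 56 of the 702. All tested genes had a median of 8.80 TPM in foregut and 8.18 TPM in hindgut. The 8-fold lists were low too, at medians of 2.71 TPM in foregut and 0.0633 TPM in hindgut for the higher genes, and 0.085 TPM in foregut and 3.82 TPM in hindgut for the lower genes.

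The ratio of counts to TPM, which follows the transcript length that the authors' quantification assigned to a gene, was the same in both regions for nearly all genes. Among 10793 genes with at least 200 counts and 1 TPM in all 6 libraries, the median size of the difference was 0.0034 log2. In 50 genes (0.463%) the ratio differed by 0.5 log2 or more and the libraries of the regions did not overlap, with 25 genes at a greater length in foregut and 25 at a shorter one. The count test called 16 of these 50 genes (32%), against 34.9% of the 10793, a share close to that over all genes.

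The direction with more calls changed with the level. Up to 10 TPM, averaged over the 6 libraries, 1867 of 9919 genes were higher in foregut (18.8%) and 1168 lower (11.8%). Between 10 and 100 TPM, 1070 of 7369 were higher (14.5%) and 1565 lower (21.2%). Over 100 TPM, 150 of 1263 were higher (11.9%) and 269 lower (21.3%), and over 1000 TPM, 6 were higher and 40 lower of 172. At 2-fold the order was the same, with 934 higher and 446 lower genes up to 10 TPM and 16 higher and 37 lower over 100 TPM. Under total-count scaling the order of all calls turned round above 10 TPM, to 2328 higher and 1046 lower between 10 and 100 TPM and 378 higher and 174 lower over 100 TPM. The 2-fold counts over 100 TPM were then 20 higher and 28 lower, and between 10 and 100 TPM they turned round as well, to 198 higher and 160 lower.

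**Figure D3:**
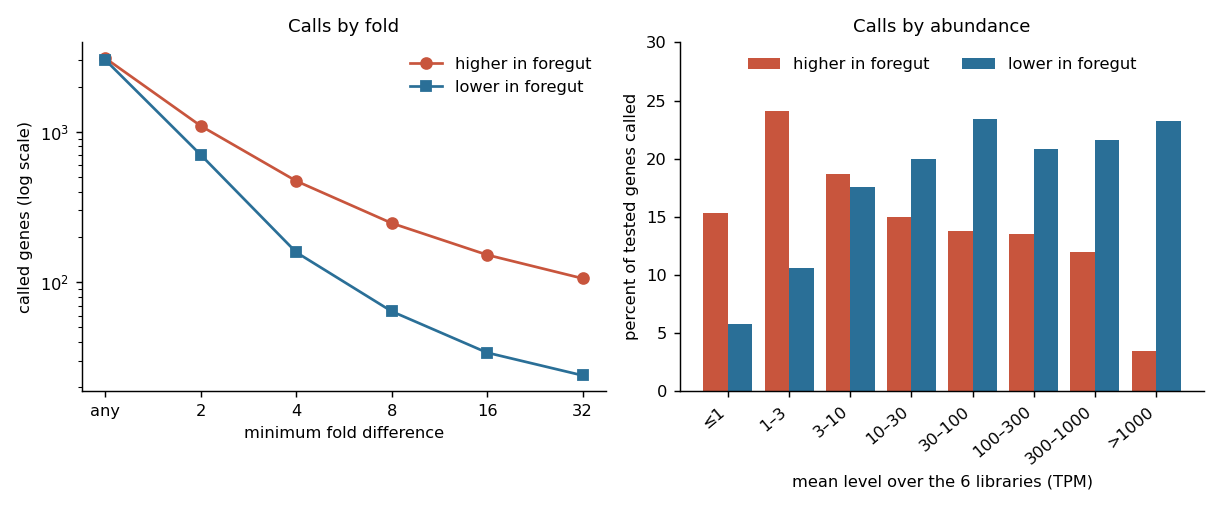
Left, the number of called genes at rising minimum fold (log scale), higher or lower in foregut; the lines part from 3087 and 3002 to 106 and 24. Right, the percent of tested genes called in each direction by mean level over the 6 libraries (TPM); genes higher in foregut have the larger share at low levels and genes lower in foregut from 10 TPM on.

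In share of reads, the 702 genes lower in foregut outweighed the 1094 higher ones. The 1094 genes at least 2-fold higher in foregut took 2.16%, 1.55% and 2.14% of counts in the foregut libraries, against 0.583%, 0.456% and 0.596% in the hindgut libraries. The 702 genes at least 2-fold lower took 2.52%, 3.28% and 2.69% of counts in the foregut libraries, against 6.18%, 6.89% and 6.39% in the hindgut libraries. By TPM, the 702 genes still outweighed the 1094 in the hindgut libraries, but not in foregut replicates 1 and 3. In the foregut libraries the 1094 genes took 1.90%, 1.29% and 1.84% of TPM, and the 702 genes 1.54%, 2.11% and 1.71%. In both lists foregut replicate 2 was the foregut library nearest to hindgut, and no library of one region reached the range of the other. The 100 most abundant genes of each library took 23.1% ± 0.559 of counts in foregut and 26.0% ± 0.258 in hindgut (SD, n = 3 each). The difference of −2.90 percentage points held in all 3 libraries against all 3, and the exact two-sided permutation test gave p = 0.1, the smallest that 3 against 3 libraries allow.

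The gene with the largest fold among those with at least 10 CPM in all 3 foregut libraries was XBXT10g018686. It had 142, 10.8 and 126 CPM in the foregut libraries and no counts in any hindgut library, where up to 3 counts over the group remain possible. On the length-scaled values it stood at 505, 40.9 and 434 TPM in foregut, against 0 TPM in the 3 hindgut libraries. The regions did not overlap, but foregut replicate 2 held 0.0807 of the mean of the other 2 foregut libraries. From 9992 counts pooled over the foregut libraries and the limit of 3 counts over the hindgut group, its level was at least 5188-fold higher in foregut (edgeR quasi-likelihood test, adjusted p = 0.0127). This bound was 3273-fold without foregut replicate 1, 2460-fold without hindgut replicate 1 and 594-fold for foregut replicate 2 alone. The call was lost in a fit of the 6 gut libraries alone, at an adjusted p of 0.0572 by edgeR. That fit with the replicate block gave 1.06e-11 by edgeR, a value that cannot decide the question. With no counts in hindgut, the block terms can follow the foregut values whatever their spread. With the block in the 9 control libraries, the adjusted p was 0.0213 by edgeR and the SE 2.02. In head with pharynx it had 0.455, 0.779 and 3.11 CPM.

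XBXT10g006183 had the highest CPM among genes at least 2-fold higher in foregut. Its level was 2238, 1119 and 2449 CPM in the foregut libraries, against 647, 324 and 741 CPM in the hindgut libraries. In TPM it averaged 1676 ± 568 in foregut and 456 ± 172 in hindgut (SD, n = 3 each). The 3 foregut values lay above all hindgut values, and replicate 2 was the lowest library in both regions, at 0.477 of the mean of replicates 1 and 3 in foregut and 0.467 in hindgut. Between libraries of the same number the fold was therefore steady, at 3.46, 3.45 and 3.303. The log2 difference was 1.76 with an SE of 0.40 (edgeR quasi-likelihood test, adjusted p = 0.0119). In head with pharynx this gene was at 1.78 to 2.92 CPM, far under both gut regions.

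Among genes lower in foregut with at least 10 CPM in all 3 hindgut libraries, XBXT10g011376 had the largest fold. It had 0.111, 0 and 0 CPM in the foregut libraries, from 5 counts, against 24.0, 27.9 and 25.3 CPM in the hindgut libraries. Its hindgut level varied little, at 25.7 ± 1.98 CPM (SD, n = 3), and all foregut libraries were at or near 0. The log2 difference was −9.02 with an SE of 0.37, derived from the test statistic (edgeR quasi-likelihood test, adjusted p = 1.6e-07). This SE rests on 5 foregut counts and depended on the method. It was 0.66 by DESeq2 and 1.29 in an edgeR fit of all 18 libraries. All 5 foregut counts came from foregut replicate 1. Without that library the fitted log2 difference was −13.25, which depends on the prior count and is no bound, and 3 counts as the limit over the other 2 foregut libraries put the level at least 515-fold lower in foregut. Head with pharynx had no counts of this gene in its 3 libraries, and foregut replicate 2 did not stand apart.

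XBXT10g004373 had the highest CPM among genes at least 2-fold lower in foregut. It had 3212, 4632 and 3810 CPM in the foregut libraries, against 7845, 9440 and 8783 CPM in the hindgut libraries. In TPM it averaged 1438 ± 320 in foregut and 2934 ± 337 in hindgut (SD, n = 3 each). The regions did not overlap, and replicate 2 was the highest library in both. The log2 difference was −1.16 with an SE of 0.18 (edgeR quasi-likelihood test, adjusted p = 0.000705), and head with pharynx had 156, 245 and 217 CPM.

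**Figure D4:**
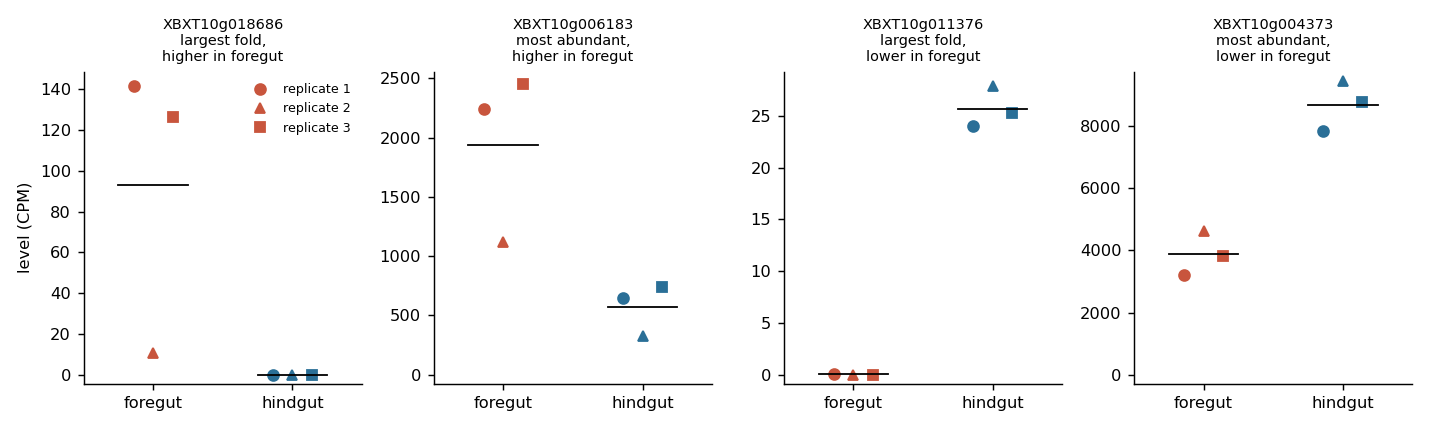
Level in CPM of the 4 named genes in the 3 foregut and 3 hindgut control libraries (circle, triangle and square for replicates 1, 2 and 3, bar at the mean, each panel with its own axis). Replicate 2 of foregut is low in XBXT10g018686, at 10.8 CPM, and replicate 2 of both regions is low in XBXT10g006183.

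The genes of highest rank, with the named genes among them, were of 2 kinds. This follows largely from the 2 ways of ranking, by fold and by CPM. Folds were ranked among called genes with at least 10 CPM in all 3 libraries of the higher region. Some genes under this limit had larger fitted folds. The 10 largest folds higher in foregut had means of 14.5 to 108 CPM in foregut, against 0 to 0.524 CPM in hindgut. The 10 largest folds lower in foregut had means of 0.0222 to 1.58 CPM in foregut, against 13.1 to 262 CPM in hindgut. In the lower region all 10 genes of the first set and 8 of the second averaged under 1 CPM, and the other 2 of the second averaged 1.09 and 1.58 CPM. Among genes at least 2-fold higher in foregut, the 10 of highest foregut CPM averaged 221 to 1935 CPM there and 15.01 to 571 CPM in hindgut. Among genes at least 2-fold lower, the 10 of highest hindgut CPM averaged 138 to 3885 CPM in foregut and 1151 to 8689 CPM in hindgut.

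Few genes were on in one gut region and off in the other. A gene was taken as on in a region at 1 CPM or more in all 3 libraries and as off under 0.1 CPM in all 3. Before TMM scaling, 1 CPM stood for 26.0 to 96.8 counts in these libraries. On the TMM-scaled CPM of the rule it stood for somewhat fewer. By this rule, which was applied to all 28863 identifiers, 36 genes were on in foregut and off in hindgut (0.125%), and 5 were on in hindgut and off in foregut (0.0173%). By comparison, 14678 genes were on in both. All 41 passed the filter on low counts and were called by the edgeR test, which called 16.6% of tested genes higher and 16.2% lower. The rule, which uses the same libraries, largely fixes that they were called. A wider rule, on in one region and under 1 CPM in all 3 libraries of the other, gave 255 genes for foregut and 96 for hindgut.

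The 36 foregut-on genes averaged 1.21 to 92.9 CPM in foregut, with a median of 3.21 CPM, and 8 of them averaged 10 CPM or more. In hindgut they had at most 14 counts over the 3 libraries, and 6 had none. The 5 hindgut-on genes had at most 8 counts over the 3 foregut libraries, 1 of them with none, and averaged 1.70 to 13.1 CPM in hindgut, with 3 at 10 CPM or more. Most genes of the 2 sets were therefore off at a trace of counts and not at 0. With no counts as the limit for off, the sets were 6 and 1.

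Foregut replicate 2 was low in most foregut-on genes. Its level was a median of 0.640 of the mean of foregut replicates 1 and 3, with a range from 0.0807 to 1.32. It was lower than that mean in 27 of the 36. Over the 11207 genes above 3 log2 CPM, a set of higher level than most of the 36, it was lower in 46.0%. Without that library 46 genes were on in foregut and off in hindgut, and 7 were on in hindgut and off in foregut. With replicate 2 of both regions left out, the numbers were 53 and 7.

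The 36 genes were of mixed state outside the gut regions. In head with pharynx 14 of the 36 were on in all 3 libraries, 11 were off in all 3, and 11 were neither. The 3 sets differed in foregut replicate 2, whose level was a median of 1.06, 0.511 and 0.299 of the mean of foregut replicates 1 and 3. It was lower than that mean in 6 of the 14 genes that were on in head with pharynx, in all 11 that were off there, and in 10 of the 11 that were neither. The sets also differed in foregut level, at medians of 2.19, 3.79 and 5.41 CPM in the same order. The rule for on requires 1 CPM in foregut replicate 2 itself, which limits how low the ratio can go in genes of low level. The difference between the sets may in part follow from that choice. Of the 5 hindgut-on genes, none was on in all 3 head with pharynx libraries and 4 were off there, or 3 with CPM scaled over all 18 libraries.

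**Figure D5:**
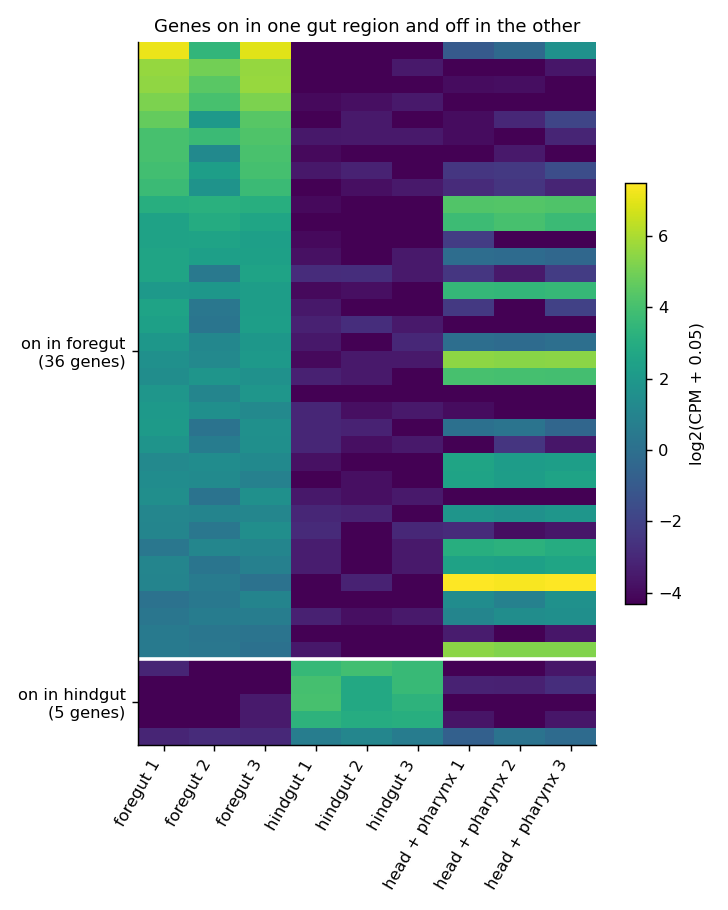
Level in log2(CPM + 0.05) of the 36 genes on in foregut and off in hindgut (above the white line) and the 5 genes on in hindgut and off in foregut (below it), ordered by mean level, in the foregut, hindgut and head with pharynx control libraries. The head with pharynx columns are a mixture, with 14 of the 36 genes on and 11 off, and foregut replicate 2 is lower than its neighbours in many rows.

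The same states were read in the treated foregut, on CPM scaled over all 18 libraries. Of the 36 foregut-on genes, 34 were on in all 3 cyclopamine libraries, 31 in all 3 BMS493 libraries and 27 in all 3 Rfx6 morpholino libraries, and none was off in all 3 libraries of a treatment. The same count over all 15198 genes on in foregut control was not made. The 36 were chosen as on in foregut control at a median of 3.21 CPM, so some may fall under 1 CPM elsewhere by that choice. The counts describe states, and an effect of treatment was not tested. Of the 5 hindgut-on genes, none was on in all 3 cyclopamine libraries and none was off in all 3. In the 3 BMS493 libraries 1 was on and 4 were off. In the 3 Rfx6 morpholino libraries 3 were on and none was off in all 3. The same counts over all 15009 genes on in hindgut control are not given.

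Genes that divided the gut regions also differed in their level in the head with pharynx. Of the 1094 genes at least 2-fold higher in foregut, mean CPM in head with pharynx lay above both gut regions in 502 (45.9%), between them in 269 and below both in 323 (29.5%). Of the 702 genes at least 2-fold lower in foregut, it lay above both in 72 (10.3%), between them in 187 and below both in 443 (63.1%). Over all tested genes the shares were 41.7% above both and 43.1% below both. With total counts in place of TMM, head with pharynx lay above both in 47.8% of the 1094 genes, 14.2% of the 702 and 56.9% of all tested genes, and below both in 26.4%, 59.1% and 28.9%. The 702 genes thus lay below both more often than all tested genes under either scaling, while the share of the 1094 genes above both was over that of all tested genes with TMM and under it with total counts. The foregut libraries enter both the choice of the lists and the comparison with head with pharynx, so these shares describe the lists.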

How the data were processed

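Per the labels' protocols, libraries were made with a stranded mRNA kit. The authors quantified genes as estimated counts, deposited as whole numbers and not normalized. In a second table the authors deposited TPM values, normalized for length and depth. The submitters' processing notes list Bowtie2 with RSEM 1.3.0. No genome build or annotation is given in the sources used here. How reads of near-identical gene copies were shared was not examined, so single identifiers are uncertain in that respect. An entry lacking a gene name, with 0 counts, was left out.

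Tests on the counts used edgeR 4.0.16 (quasi-likelihood, robust, TMM scaling, minimum count of 10 in its expression filter) under R 4.3.3. One model took the 9 control libraries with group as the only term, and the contrast was foregut over hindgut. The limit for a call was an adjusted p (Benjamini-Hochberg) under 0.05 over 18551 genes. The common biological coefficient of variation was 0.119. Each edgeR SE given is the size of the log2 difference divided by the square root of the test's F statistic. It was not estimated separately. CPM were scaled by TMM, and log2 CPM used a prior count of 2. The edgeR step was tested on simulated data. Where a group had no counts of a gene, up to 3 counts remain possible, for counting error only.

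No replicate pair agreed within sampling noise, as the chi-square per degree of freedom was 11.1 to 53.1 over genes with 20 or more counts in the pair. Replicate numbers paired foregut and hindgut libraries by their deviations (r of 0.44, 0.61 and 0.38), plainest for number 2. This comes from the data and not from the labels. With head with pharynx, r of the same number was 0.015, 0.066 and 0.209 for foregut, and −0.168, −0.034 and 0.323 for hindgut. Between different numbers it ran from −0.194 to 0.128 for foregut and from −0.229 to 0.271 for hindgut. No pairing of numbers 1 and 2 with head with pharynx was thus seen, while number 3 had the highest r in both regions. The genes were chosen by level in the gut libraries only, so a low r cannot show that pairing was absent.

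In each direction, the named genes were the largest fold among called genes with 10 CPM or more in all libraries of the higher region, and the highest CPM among genes at least 2-fold different. The groups and rules were chosen with earlier results of these data known. Marker lists by symbol could not be applied. Alternatives were other scalings, DESeq2 1.42.0, no filter, other sets of libraries, the replicate block, other limits for on and off, and each library left out.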

Additional observations from a re-analysis of the deposited data

How the results depend on the processing

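No gene was called one way in the comparison as reported and the other way in any of the 15 alternatives of its test. Total-count scaling gave 5320 genes higher in foregut, and every other alternative kept the counts of calls, of 2-fold and of 8-fold genes within 1.5 times. Leaving out each foregut or hindgut library in turn gave 2437 to 3015 genes higher and 2467 to 3276 lower, and 1009 to 1203 and 640 to 818 at 2-fold. Without foregut replicate 2, 95.4% of the 1094 genes and 96.0% of the 702 were still called. The 6 gut libraries alone, without the replicate block, gave 2439 genes higher and 2680 lower, and 944 and 684 at 2-fold. That fit kept 78.6% of the 3087 higher calls and 88.2% of the 3002 lower calls, and lower calls outnumbered higher ones. With the replicate block, which takes the numbers as pairs, the 6 gut libraries gave 3388 genes higher and 3692 lower. The 9 control libraries with the block gave 3397 and 3317. Foregut-on genes numbered 6 with no counts as the limit for off, 57 with off under 0.2 CPM, 9 with on at 5 CPM, 40 in TPM and 37 to 46 with a library left out. Hindgut-on genes numbered 1, 10, 4 and 8 under the same limits and 5 to 7. The share of foregut counts in the 1094 genes was 1.35% without their 10 most abundant genes and 0.536% at 4-fold. The share of hindgut counts in the 702 genes was 3.73% and 0.640% under the same changes, and 4.07% of TPM. The place of foregut replicate 2 stayed between 0.773 and 0.812. Of the 4 named genes, XBXT10g018686 lost its call in 1 alternative, the 6 gut libraries without the block, and the cause was not tested. With 3 libraries a group, spread limits every comparison, and genes below about 1 CPM rest on few counts. The block in 9 libraries, leaving out replicate 2 of both regions, the 8-fold counts, the bounds without single libraries and the 18-library scaling of on and off states were chosen after seeing the data.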
